A study of Mus musculus with 6 samples.

Results

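Transcripts of 34 airway and alveolar epithelial genes were followed in RNA from mouse bronchoalveolar lavage (BALF) cells, which are rinsed from the lung's air spaces. The genes were chosen by name, and all 34 were found among the 40564 genes of the count tables. They comprise 7 genes shared by lung epithelial cells (Epcam, Krt8, Krt18, Cldn4, Muc1, Wfdc2 and Nkx2-1), 7 genes of alveolar type 2 cells, 4 genes of alveolar type 1 cells, 5 genes of club cells, 6 genes of goblet and other secretory cells and 5 genes of ciliated cells. All 34 also passed the filter on low counts, together with 16765 genes in all. The samples are 6 bulk RNA sequencing libraries from 3 genotypes with 2 replicates each. The Cis Stat6 KO cells (genotype Cis_Stat6_DKO in the labels) lack CIS and STAT6, the Cis KO cells lack CIS, and the Cis WT cells are wild type. No cells with loss of STAT6 alone were analysed here. The labels describe untreated lung immune cells of the same batch date and give neither age, sex, strain nor the construction of the alleles. They do not say that replicates came from separate animals, so every p-value measures the spread between these samples.

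The airspaces are lined by a few kinds of epithelial cell. Type 1 cells are flat and form the gas exchange surface, and type 2 cells make surfactant, the mixture of lipid and surfactant proteins that lowers surface tension and that alveolar macrophages take up and degrade. The conducting airways carry club cells, which secrete secretoglobins and metabolise foreign compounds, mucus-making goblet cells and ciliated cells. CIS, the product of Cish, is an SH2-domain protein that restrains cytokine receptor signalling and is induced by STAT5, and STAT6 carries the signals of interleukin 4 and interleukin 13. EpCAM, the product of Epcam, is a homophilic adhesion protein used as a general surface marker of epithelial cells. In mice it is also carried by Langerhans cells and some other dendritic cells. Epithelial cells are not the labelled cells of these samples, so the 34 genes describe a minor share of the RNA.

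Library totals lay between 50762354 and 65937118 counts. Alveolar macrophage genes were abundant throughout: a list of 10 such markers summed to 29815 and 38837 CPM in Cis Stat6 KO cells, 18019.7 and 13186 CPM in Cis KO cells and 14158 and 21620.3 CPM in Cis WT cells, where CPM is the normalised read count per library size after TMM scaling. Values of a genotype are given for replicate 1 and then replicate 2. Cish, the targeted gene, had 1.72 and 5.04 CPM in Cis Stat6 KO cells, 4.34 and 3.52 CPM in Cis KO cells and 46.2 and 56.2 CPM in Cis WT cells, and Stat6 had 31.6 and 25.5 CPM in Cis Stat6 KO cells, 264 and 221 CPM in Cis KO cells and 233 and 227 CPM in Cis WT cells. Cish was thus low in the 4 libraries labelled CIS-deficient (edgeR adjusted p = 0.0624 for Cis KO and 0.0767 for Cis Stat6 KO, each against Cis WT), and Stat6 fell in those labelled STAT6-deficient (edgeR adjusted p = 0.00610 against Cis KO and 0.00988 against Cis WT). Cis KO replicate 2 stood apart: haemoglobin genes took 3.29% of its counts, against 0.00156% to 0.0366% in the other libraries, and 15855 genes had a count in it, against 19641 to 20431 elsewhere. Fold changes of the 34 genes that use it are therefore also given without it.

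Together the 34 genes took a small and uneven part of the RNA. Their share of all counts was 0.0641 and 0.0305% in Cis Stat6 KO cells, 0.0629 and 0.140% in Cis KO cells and 0.0761 and 0.0772% in Cis WT cells. Per unit length, 5 genes reached 10 FPKM in every library (FPKM is the authors' value per gene length and sequencing depth). These were Napsa and Tppp3, the club cell genes Scgb1a1 and Cyp2f2, and Bpifa1. Another 5 genes stayed under 1 FPKM in every library, among them Nkx2-1, the transcription factor that defines lung epithelium, and Ager, a defining gene of type 1 cells. Lamp3 of type 2 cells, Cldn18 of type 1 cells and Tmem212 of ciliated cells were the others. Sftpc, which among lung cells is a defining product of type 2 cells, had 3.67 and 0.660 FPKM in Cis Stat6 KO cells, 2.65 and 10.7 FPKM in Cis KO cells and 4.53 and 5.75 FPKM in Cis WT cells. The labels' description as immune cells thus stood beside measurable transcripts from the gene list of every epithelial type, with defining genes at 0 counts in some libraries. Which cells carried these transcripts was not tested. In bulk RNA, fewer cells of a type and less RNA per cell cannot be told apart.

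**Figure D1:**
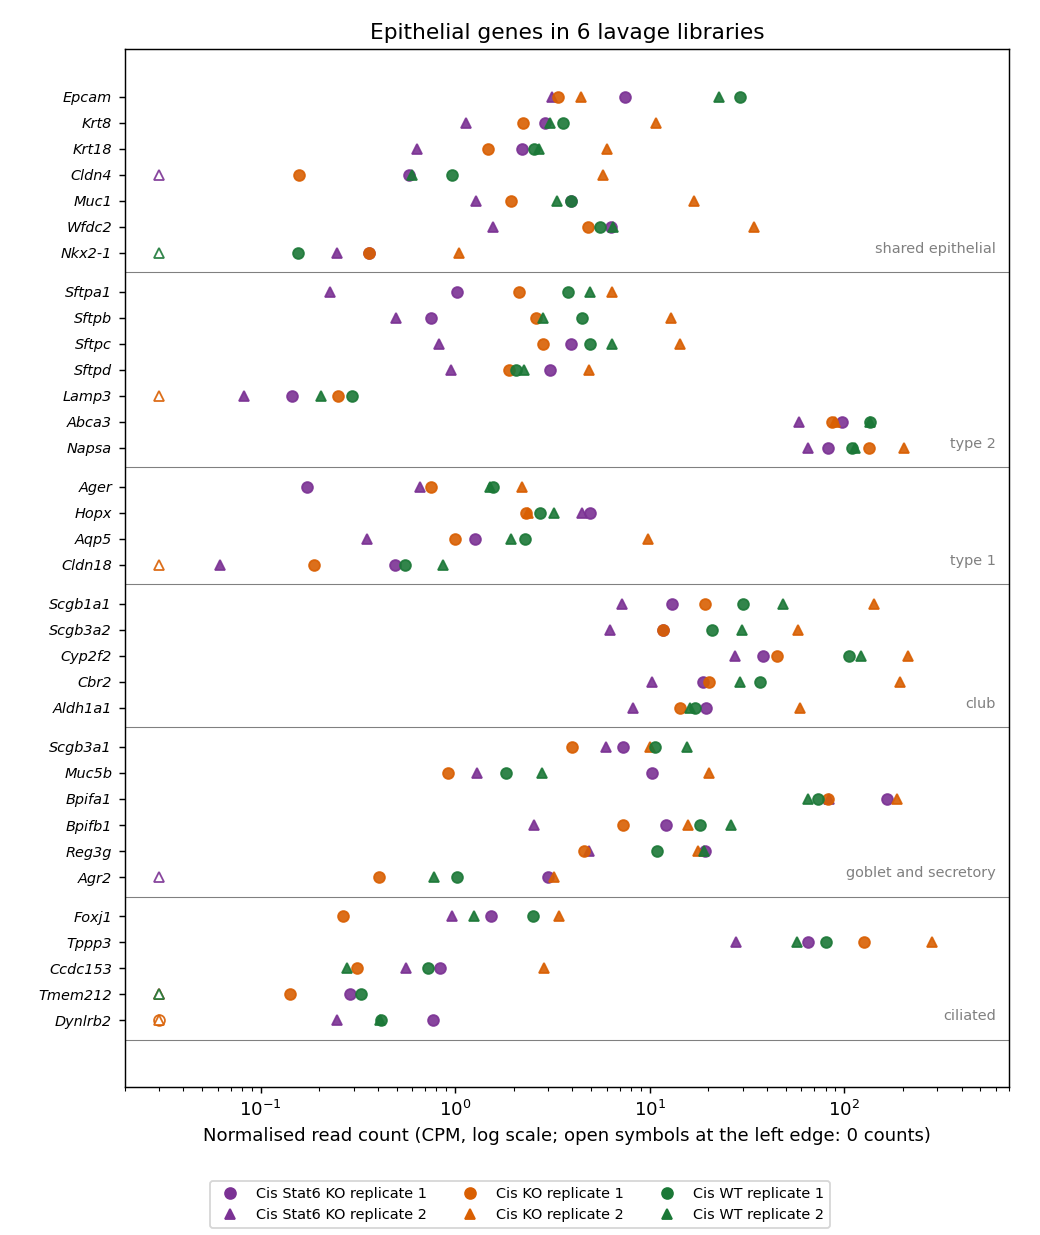
Normalised read count (CPM, log scale) of each of the 34 genes in the 6 libraries, grouped by epithelial type; circles are replicate 1, triangles replicate 2, and open symbols at the left edge are 0 counts. Cis KO replicate 2 was the highest library for 24 genes and Cis Stat6 KO replicate 2 the lowest for 22, whereas for Epcam the Cis WT libraries lay to the right of all others.

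For most of the 34 genes the outermost libraries were replicates of a mutant genotype. Cis KO replicate 2 was the highest of the 6 libraries for 24 of the 34 genes, and Cis Stat6 KO replicate 2 was the lowest for 22. How often each library was highest or lowest over all tested genes was not counted. In Cis Stat6 KO cells 33 of 34 genes were lower in replicate 2 than in replicate 1, with a median difference of -1.23 on the log2 scale. In Cis KO cells 30 of 34 were higher in replicate 2, with a median difference of 2.15. The Cis WT replicates differed least, with a median difference of -0.01. Over all genes tested the same medians were -0.01, -0.02 and 0.0023 for Cis Stat6 KO, Cis KO and Cis WT cells. Cis KO replicate 1 lay below both Cis WT libraries for 27 of the 34 genes, and Cis KO replicate 2 lay above both for 24. The same counts over all tested genes were 36.8% below in replicate 1 and 39.1% above in replicate 2. The Cis KO libraries therefore sat on opposite sides of Cis WT for most epithelial genes. Below both Cis WT libraries lay 19 genes in Cis Stat6 KO replicate 1 and 29 in replicate 2, where 36.2% and 39.7% of all tested genes did so.

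Promoter windows of 3 genes are printed because the values below turn on them: Epcam, which had the widest gap below Cis WT, Cbr2, a club cell enzyme gene with a wide gap between the Cis KO replicates, and Sftpb, the surfactant protein gene with the most negative difference between Cis Stat6 KO and Cis KO cells. They come from RefSeq on GRCm38.p6, read 5′ to 3′ on the gene's strand and run across its annotated start. Epcam lies at chr17:87635729-87636028, strand +, Cbr2 at chr11:120731972-120732271, strand - and Sftpb at chr6:72304360-72304659, strand +. Capitals mark letters that match a searched motif on either strand. In Epcam they mark a GC box (GGGCGG, here as its reverse complement), in Cbr2 STAT half-sites at the spacing that STAT6 is known to favour (TTCNNNNGAA) and in Sftpb the core of an NKX2-1 site (CTCAAG).
Epcam: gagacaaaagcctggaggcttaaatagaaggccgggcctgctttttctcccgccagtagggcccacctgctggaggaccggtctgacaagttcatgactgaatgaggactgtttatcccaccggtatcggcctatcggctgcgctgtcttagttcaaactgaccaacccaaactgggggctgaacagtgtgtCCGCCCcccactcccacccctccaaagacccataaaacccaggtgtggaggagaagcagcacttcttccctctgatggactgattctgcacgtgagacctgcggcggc
Cbr2: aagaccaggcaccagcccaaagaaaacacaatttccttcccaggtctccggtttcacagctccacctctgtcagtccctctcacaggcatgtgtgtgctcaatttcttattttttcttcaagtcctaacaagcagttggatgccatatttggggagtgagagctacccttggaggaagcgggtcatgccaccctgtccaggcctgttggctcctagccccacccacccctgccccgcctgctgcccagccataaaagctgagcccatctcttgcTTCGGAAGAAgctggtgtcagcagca
Sftpb: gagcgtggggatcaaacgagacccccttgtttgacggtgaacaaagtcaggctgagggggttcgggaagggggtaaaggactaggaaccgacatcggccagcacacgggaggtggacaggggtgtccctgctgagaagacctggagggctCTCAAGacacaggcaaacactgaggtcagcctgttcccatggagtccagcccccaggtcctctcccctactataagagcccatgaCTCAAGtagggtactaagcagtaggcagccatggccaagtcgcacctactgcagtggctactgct

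The promoter table matched 26 of the 34 genes by name, and the shares below are over its 32851 windows of the same length. The GC box of Epcam starts at -58 from the start site, and such a box stood in 35.7% of all windows and in those of 9 matched epithelial genes. The CTCAAG motif stood in 15.9% of all windows and in 9 matched genes, with starts at -100 and -15 in Sftpb. TTCNNNNGAA stood in 6.95% of all windows and in Cbr2 and Dynlrb2 among the epithelial genes. In Cbr2 it starts at 25, downstream of the start site, and in Dynlrb2 at -197. The STAT motif with a shorter spacer, TTCNNNGAA, stood in 8.30% and in Bpifb1, Lamp3 and Scgb3a1. The forkhead motif TGTTTAC stood in 3.65% and in Lamp3, and the GRHL motif AACCNGTT in 2.09% and in Muc1. These matches describe letters in a window and were not set against binding data.

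Epcam was lower in all 4 mutant libraries than in both wild-type libraries, by the widest margin of the 34 genes. It had 7.46 and 3.15 CPM in Cis Stat6 KO cells, 3.36 and 4.41 CPM in Cis KO cells and 28.9 and 22.6 CPM in Cis WT cells, from 153 to 1678 counts per library. The lower Cis WT library was 3.03-fold above the highest mutant library. Of the 34 genes 5 had all 4 mutant libraries below both Cis WT libraries, and for the other 4, Abca3, Cldn18, Scgb3a1 and Bpifb1, that margin was 1.06-fold to 1.38-fold. Bpifa1 and Nkx2-1 had all 4 above. How many of all tested genes had either pattern was not counted. In the deposited coordinates Epcam spans chr17:87635979-87651106 on the + strand. The means were 5.30 ± 3.05 CPM in Cis Stat6 KO cells, 3.88 ± 0.740 CPM in Cis KO cells and 25.8 ± 4.52 CPM in Cis WT cells (SD, n = 2 each). The fitted level was 6.64-fold lower in Cis KO than in Cis WT cells (log2 fold change -2.73 ± 0.46 SE) and 4.85-fold lower in Cis Stat6 KO than in Cis WT cells (-2.28 ± 0.45). By edgeR's quasi-likelihood test with Benjamini-Hochberg adjustment over all genes neither difference passed the threshold of 0.05, with adjusted p of 0.112 and 0.230. DESeq2 gave adjusted p of 2.64e-06 and 0.000231 for the same differences. Over 18 alternative analyses the Cis KO against Cis WT log2 fold change ran between -2.94 and -2.24, and 4 of them called it, with adjusted p between 1.81e-09 and 0.577. For Cis Stat6 KO against Cis WT 5 called it, with adjusted p between 1.41e-06 and 1.00. The gap from Cis WT thus kept its sign over the analyses run, while its call depended on the analysis. Between Cis Stat6 KO and Cis KO cells the log2 fold change was 0.45 ± 0.44 (edgeR adjusted p = 0.599), 0.66 without Cis KO replicate 2 and -0.31 without Cis Stat6 KO replicate 1.

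Epcam was also set against other epithelial genes within the same library. The ratio of its FPKM to the summed FPKM of Krt8 and Krt18, the keratins of simple epithelia, was 1.13 and 1.42 in Cis Stat6 KO cells, 0.711 and 0.207 in Cis KO cells and 3.68 and 3.00 in Cis WT cells. Its ratio to the sum of the other 33 epithelial genes was 0.0109 and 0.00853 in Cis Stat6 KO cells, 0.00507 and 0.00182 in Cis KO cells and 0.0355 and 0.0245 in Cis WT cells. In both ratios the Cis WT libraries were above the other 4. Against single genes the separation was less complete. The ratio of Epcam to Scgb1a1 was 0.125 and 0.0941 in Cis Stat6 KO cells, 0.0380 and 0.00673 in Cis KO cells and 0.209 and 0.101 in Cis WT cells. The ratio to Cyp2f2 was 0.179 and 0.105 in Cis Stat6 KO cells, 0.0687 and 0.0191 in Cis KO cells and 0.252 and 0.171 in Cis WT cells. The ratio to Sftpc was 0.899 and 1.80 in Cis Stat6 KO cells, 0.566 and 0.146 in Cis KO cells and 2.76 and 1.67 in Cis WT cells. In these 3 a Cis Stat6 KO library exceeded Cis WT replicate 2, while both Cis KO libraries were below both Cis WT libraries. In Cis KO replicate 2 Epcam stood at 17.1% of its Cis WT mean in CPM, whereas the other shared epithelial genes together stood at 456%. Against Cdh1, which encodes E-cadherin, an adhesion protein of epithelia that macrophages exposed to interleukin 4 also make, the FPKM ratio of Epcam was 0.206 and 0.109 in Cis Stat6 KO cells, 0.127 and 0.134 in Cis KO cells and 1.94 and 1.27 in Cis WT cells.

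Cdh1, Krt19 and Spint1, from a list of epithelial junctions and keratins outside the 34, did not share the pattern of Epcam. Marveld2, of the same list, had 30.5 and 29.0 CPM in Cis Stat6 KO cells, 36.9 and 17.7 CPM in Cis KO cells and 31.5 and 34.1 CPM in Cis WT cells. Its Cis Stat6 KO libraries and Cis KO replicate 2 were below both Cis WT libraries, and Cis KO replicate 1 was above both. Cdh1 had 75.4 and 59.6 CPM in Cis Stat6 KO cells, 55.0 and 68.6 CPM in Cis KO cells and 31.2 and 37.0 CPM in Cis WT cells, higher in all 4 mutant libraries than in both Cis WT libraries, without a call by edgeR (adjusted p = 0.340 for Cis KO and 0.334 for Cis Stat6 KO, each against Cis WT). Krt19, a simple-epithelial keratin, had 434 and 321 CPM in Cis Stat6 KO cells, 757 and 1155 CPM in Cis KO cells and 501 and 474 CPM in Cis WT cells and was far more abundant than Krt8 or Krt18 per unit length (145 to 482 FPKM). Spint1, which encodes a membrane-bound inhibitor of serine proteases typical of epithelia, was the opposite of Epcam, with 30.4 and 20.2 CPM in Cis Stat6 KO cells, 34.8 and 56.2 CPM in Cis KO cells and 1.86 and 1.30 CPM in Cis WT cells. It rose in Cis KO cells (log2 fold change 4.85 ± 0.40, edgeR adjusted p = 0.0158) and in Cis Stat6 KO cells (4.00 ± 0.39, edgeR adjusted p = 0.0284), both against Cis WT. Markers of dendritic cells, some of which carry EpCAM, did not all run alike. Cd207, the langerin gene of Langerhans cells, had 24 and 53 counts in Cis Stat6 KO cells, 8 and 0 counts in Cis KO cells and 0 and 0 counts in Cis WT cells. Flt3, a growth factor receptor of dendritic cells, had 96 and 56 counts in Cis Stat6 KO cells, 15 and 0 counts in Cis KO cells and 3 and 0 counts in Cis WT cells. Ccr7, the homing receptor of mature dendritic cells, had 3.08 and 7.75 CPM in Cis Stat6 KO cells, 7.88 and 11.6 CPM in Cis KO cells and 8.57 and 2.05 CPM in Cis WT cells. Batf3, a transcription factor of cross-presenting dendritic cells, had 2.20 and 2.53 CPM in Cis Stat6 KO cells, 4.67 and 17.1 CPM in Cis KO cells and 3.14 and 4.94 CPM in Cis WT cells. Xcr1, a chemokine receptor of the same cells, had 0.939 and 1.21 CPM in Cis Stat6 KO cells, 0.391 and 0 CPM in Cis KO cells and 1.07 and 0.511 CPM in Cis WT cells. In Cis KO replicate 2 Ccr7 and Batf3 were highest and Cd207, Flt3 and Xcr1 were at 0, and none of the 5 had both Cis WT libraries above the other 4. Their part in the level of Epcam was not tested. The 10 listed dendritic and Langerhans cell genes, led by Cd24a, summed to 133 and 187 CPM in Cis Stat6 KO cells, 274 and 292 CPM in Cis KO cells and 214 and 185 CPM in Cis WT cells.

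**Figure D2:**
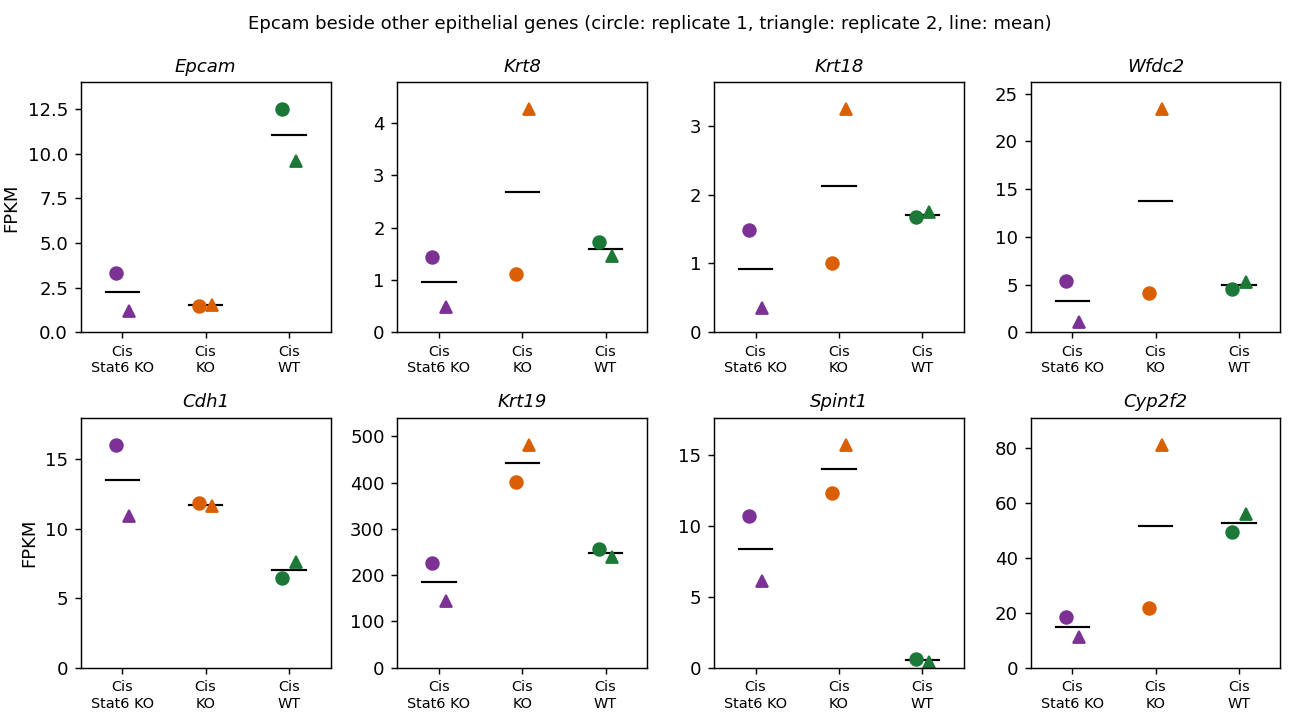
Level (FPKM) of Epcam, of Krt8, Krt18, Wfdc2 and Cyp2f2 and of Cdh1, Krt19 and Spint1 in each library; circles are replicate 1, triangles replicate 2 and lines the genotype means, and each panel has its own axis from 0. Epcam was high in both Cis WT libraries, Cdh1 and Spint1 were low there, and Krt8, Krt18, Wfdc2 and Cyp2f2 were highest in Cis KO replicate 2.

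Each of the other 6 shared epithelial genes was highest in Cis KO replicate 2. Wfdc2, a secreted protease inhibitor-like protein, had 6.34 and 1.56 CPM in Cis Stat6 KO cells, 4.81 and 34.4 CPM in Cis KO cells and 5.52 and 6.47 CPM in Cis WT cells. Muc1, a membrane mucin of the apical surface, had 3.94 and 1.27 CPM in Cis Stat6 KO cells, 1.92 and 16.9 CPM in Cis KO cells and 3.95 and 3.35 CPM in Cis WT cells. Krt8 had 2.89 and 1.13 CPM in Cis Stat6 KO cells, 2.23 and 10.8 CPM in Cis KO cells and 3.57 and 3.05 CPM in Cis WT cells. In all 3 the outer values were Cis KO replicate 2 at the top and Cis Stat6 KO replicate 2 at the bottom, and the genotypes overlapped, except that for Krt8 both Cis Stat6 KO libraries were below both Cis WT libraries. Krt18, the partner of Krt8 in keratin filaments, kept an FPKM ratio to Krt8 of 1.04 and 0.750 in Cis Stat6 KO cells, 0.901 and 0.761 in Cis KO cells and 0.971 and 1.19 in Cis WT cells. Krt18 itself had 2.21 and 0.637 CPM in Cis Stat6 KO cells, 1.47 and 6.03 CPM in Cis KO cells and 2.54 and 2.69 CPM in Cis WT cells. Cldn4, a tight junction claudin, had 0.578 and 0 CPM in Cis Stat6 KO cells, 0.156 and 5.75 CPM in Cis KO cells and 0.966 and 0.599 CPM in Cis WT cells. For Krt18 and Cldn4, as for Krt8, both Cis Stat6 KO libraries were below both Cis WT libraries. Nkx2-1 was at the edge of detection, with 0 to 1.05 CPM, and was absent from the counts of Cis WT replicate 2. It was higher in every mutant library than in either Cis WT library. Without Epcam the group summed to 16.3 and 4.85 CPM in Cis Stat6 KO cells, 11.0 and 74.9 CPM in Cis KO cells and 16.7 and 16.2 CPM in Cis WT cells.

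Alveolar type 2 genes formed 2 sets by level. The surfactant protein genes were low. Sftpc, the hydrophobic surfactant protein C, had 3.92 and 0.823 CPM in Cis Stat6 KO cells, 2.81 and 14.2 CPM in Cis KO cells and 4.95 and 6.37 CPM in Cis WT cells. Sftpb, surfactant protein B, had 0.751 and 0.494 CPM in Cis Stat6 KO cells, 2.59 and 12.8 CPM in Cis KO cells and 4.47 and 2.82 CPM in Cis WT cells. Sftpa1, a collectin, had 1.03 and 0.226 CPM in Cis Stat6 KO cells, 2.13 and 6.39 CPM in Cis KO cells and 3.78 and 4.92 CPM in Cis WT cells. Both Cis Stat6 KO libraries were below all Cis KO and Cis WT libraries for Sftpa1 and Sftpb, but the Cis Stat6 KO and Cis KO libraries overlapped for Sftpc. Against Cis KO cells the edgeR log2 fold changes in Cis Stat6 KO cells were -3.62 ± 0.84 for Sftpb (adjusted p = 0.145) and -2.75 ± 0.87 for Sftpa1 (adjusted p = 0.214). Without Cis KO replicate 2 they were -2.06 for Sftpb and -1.74 for Sftpa1, and without Cis KO replicate 1, where both were called, they were -4.34 and -3.31. Against Cis WT cells the fold changes in Cis Stat6 KO cells were -2.54 ± 0.80 for Sftpb (adjusted p = 0.686) and -2.78 ± 0.87 for Sftpa1 (adjusted p = 0.674). With all libraries none of these 4 differences passed the threshold. Without Cis Stat6 KO replicate 1 the values of Sftpa1 were -4.22 against Cis KO and -4.27 against Cis WT, and without Cis Stat6 KO replicate 2 they were -2.04 and -2.08. Sftpd, the other collectin, had 3.06 and 0.946 CPM in Cis Stat6 KO cells, 1.89 and 4.86 CPM in Cis KO cells and 2.05 and 2.25 CPM in Cis WT cells, with overlap between the genotypes. Lamp3, a lamellar body membrane protein, reached at most 0.293 CPM and had 0 counts in Cis KO replicate 2.

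Abca3 and Napsa formed the higher set and varied less between replicates. Abca3, the transporter that loads lipid into lamellar bodies, had 97.7 and 58.7 CPM in Cis Stat6 KO cells, 86.2 and 89.6 CPM in Cis KO cells and 135 and 135 CPM in Cis WT cells. All 4 mutant libraries were below both Cis WT libraries. The edgeR log2 fold change was -0.62 ± 0.26 in Cis KO and -0.79 ± 0.26 in Cis Stat6 KO cells against Cis WT (adjusted p = 0.447 and 0.707), and the Cis KO value was -0.65 without Cis KO replicate 2. Napsa, an aspartic protease that matures surfactant proteins B and C, had 82.0 and 65.1 CPM in Cis Stat6 KO cells, 134 and 202 CPM in Cis KO cells and 109 and 113 CPM in Cis WT cells. The 3 genotypes did not overlap, with Cis KO above Cis WT and Cis WT above Cis Stat6 KO. For Cis Stat6 KO against Cis KO the log2 fold change of Napsa was -1.19 ± 0.25, and its edgeR adjusted p of 0.125 was the smallest of the 34 genes in that comparison. The fold change was -0.87 without Cis KO replicate 2 and -1.45 without Cis KO replicate 1, where it was called. The Napsa to Sftpc ratio, in FPKM, was 8.17 and 31.0 in Cis Stat6 KO cells, 18.6 and 5.52 in Cis KO cells and 8.60 and 6.91 in Cis WT cells, so these type 2 genes did not keep a fixed proportion between libraries. The Abca3 to Sftpc ratio was 2.76 and 7.92 in Cis Stat6 KO cells, 3.41 and 0.695 in Cis KO cells and 3.02 and 2.34 in Cis WT cells. Reads assigned to D330041H03Rik on the other strand within Abca3 came to 227 counts, against 36123 for Abca3 itself over the 6 libraries.

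Type 1 genes were sparse. Aqp5, a water channel, had 1.26 and 0.350 CPM in Cis Stat6 KO cells, 1.00 and 9.73 CPM in Cis KO cells and 2.29 and 1.94 CPM in Cis WT cells, highest in Cis KO replicate 2. Ager, the receptor for advanced glycation end products, had 0.173 and 0.658 CPM in Cis Stat6 KO cells, 0.750 and 2.19 CPM in Cis KO cells and 1.57 and 1.51 CPM in Cis WT cells, with both Cis Stat6 KO libraries lowest. Cldn18, a tight junction claudin of the alveolus, did not exceed 0.862 CPM and had 0 counts in Cis KO replicate 2. Hopx, a homeodomain-only cofactor, differed from these, with 4.91 and 4.50 CPM in Cis Stat6 KO cells, 2.30 and 2.37 CPM in Cis KO cells and 2.73 and 3.20 CPM in Cis WT cells. Its Cis Stat6 KO libraries lay above all 4 others, and its replicates agreed closely in every genotype. Against Cis KO cells its log2 fold change in Cis Stat6 KO cells was 1.01 ± 0.41 (edgeR adjusted p = 0.268), and 1.03 without Cis KO replicate 2.

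Club cell genes made up the group with the highest summed level in Cis KO replicate 2. Scgb1a1, the club cell secretory protein, had 13.0 and 7.20 CPM in Cis Stat6 KO cells, 19.1 and 141 CPM in Cis KO cells and 30.1 and 48.4 CPM in Cis WT cells. Cyp2f2, a cytochrome P450 of mouse club cells, had 38.3 and 27.3 CPM in Cis Stat6 KO cells, 45.0 and 212 CPM in Cis KO cells and 106 and 122 CPM in Cis WT cells. Cbr2, a carbonyl reductase abundant in mouse lung, had 18.9 and 10.3 CPM in Cis Stat6 KO cells, 20.2 and 193 CPM in Cis KO cells and 36.7 and 29.1 CPM in Cis WT cells. For all 3 Cis KO replicate 2 was the highest library and both Cis Stat6 KO libraries were below every other library. Cis KO replicate 1 was below both Cis WT libraries for each of them. Scgb3a2, a further secretoglobin, had 11.6 and 6.21 CPM in Cis Stat6 KO cells, 11.7 and 57.7 CPM in Cis KO cells and 20.9 and 29.7 CPM in Cis WT cells, and Aldh1a1, a retinaldehyde dehydrogenase, had 19.4 and 8.20 CPM in Cis Stat6 KO cells, 14.2 and 59.1 CPM in Cis KO cells and 17.0 and 16.1 CPM in Cis WT cells. Aldh1a1 overlapped between Cis Stat6 KO and the other genotypes. Taking Scgb1a1 as the yardstick, the FPKM ratio of Cbr2 was 0.522 and 0.512 in Cis Stat6 KO cells, 0.378 and 0.490 in Cis KO cells and 0.437 and 0.215 in Cis WT cells, and that of Cyp2f2 was 0.696 and 0.892 in Cis Stat6 KO cells, 0.553 and 0.353 in Cis KO cells and 0.827 and 0.591 in Cis WT cells. The ratio of Scgb3a2 was 0.485 and 0.464 in Cis Stat6 KO cells, 0.332 and 0.220 in Cis KO cells and 0.375 and 0.332 in Cis WT cells. Over the libraries these ratios spanned a narrower relative range than those of Napsa or Abca3 to Sftpc. The summed club cell level was 101 and 59.2 CPM in Cis Stat6 KO cells, 110.3 and 664 CPM in Cis KO cells and 210.5 and 245 CPM in Cis WT cells.

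The edgeR log2 fold changes of club genes in Cis Stat6 KO against Cis KO cells were -2.99 ± 0.88 for Scgb1a1, -2.87 ± 0.94 for Cbr2, -1.97 ± 0.65 for Cyp2f2 and -1.96 ± 0.72 for Scgb3a2, with adjusted p from 0.198 to 0.240. None was called. Without Cis KO replicate 2 the same 4 values were -0.93, -0.47, -0.46 and -0.40, in the same order. Against Cis WT, where that library enters no mean but shares in the estimate of the spread, Cyp2f2 gave -1.79 ± 0.65 in Cis Stat6 KO cells (edgeR adjusted p = 0.825). That fold change was -1.80 in a fit without Cis KO replicate 2, with an edgeR adjusted p of 0.00488, and over 18 alternatives the adjusted p ran between 1.02e-09 and 1.00.

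Secretory genes divided between those with and those without the library pattern. Bpifa1, an abundant secreted airway surface protein, had 166 and 83.7 CPM in Cis Stat6 KO cells, 82.4 and 186 CPM in Cis KO cells and 73.3 and 65.2 CPM in Cis WT cells. Of the 34 genes it had the highest FPKM in both Cis Stat6 KO libraries, and all 4 mutant libraries were above both Cis WT libraries. Its FPKM ratio to Scgb1a1 was 3.96 and 3.58 in Cis Stat6 KO cells, 1.33 and 0.405 in Cis KO cells and 0.750 and 0.415 in Cis WT cells, with both Cis Stat6 KO libraries above the rest. Scgb3a1, a secretoglobin of upper airway secretory cells, had 7.24 and 5.92 CPM in Cis Stat6 KO cells, 3.99 and 10.0 CPM in Cis KO cells and 10.6 and 15.5 CPM in Cis WT cells. Bpifb1, a relative of Bpifa1, had 12.1 and 2.53 CPM in Cis Stat6 KO cells, 7.31 and 15.6 CPM in Cis KO cells and 18.0 and 26.2 CPM in Cis WT cells. For Scgb3a1 and Bpifb1 all 4 mutant libraries lay below both Cis WT libraries, whichever replicate was taken. Muc5b, a gel-forming mucin, had 10.2 and 1.30 CPM in Cis Stat6 KO cells, 0.922 and 20.1 CPM in Cis KO cells and 1.83 and 2.79 CPM in Cis WT cells, with replicates of each mutant genotype far apart. Reg3g, an antibacterial lectin, had 19.2 and 4.87 CPM in Cis Stat6 KO cells, 4.58 and 17.7 CPM in Cis KO cells and 10.9 and 18.9 CPM in Cis WT cells. Agr2, a disulfide isomerase needed for mucin folding, had 3.01 and 0 CPM in Cis Stat6 KO cells, 0.406 and 3.20 CPM in Cis KO cells and 1.02 and 0.775 CPM in Cis WT cells. For Reg3g and Agr2 the genotypes overlapped.

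Ciliated cell genes were near the detection limit apart from Tppp3. Tppp3, a tubulin-binding protein, had 65.0 and 27.7 CPM in Cis Stat6 KO cells, 126 and 281 CPM in Cis KO cells and 80.1 and 57.1 CPM in Cis WT cells. Both Cis KO libraries lay above all others for Tppp3. Its edgeR log2 fold change was 1.57 ± 0.51 in Cis KO against Cis WT cells (adjusted p = 0.422) and -2.13 ± 0.52 in Cis Stat6 KO against Cis KO cells (adjusted p = 0.159). Without Cis KO replicate 2 they were 0.88 and -1.44, and without Cis KO replicate 1, where both were called, they were 2.02 and -2.59. Without Cis Stat6 KO replicate 1 the second was -2.88. Foxj1, the transcription factor that specifies motile cilia, had 1.52 and 0.966 CPM in Cis Stat6 KO cells, 0.266 and 3.43 CPM in Cis KO cells and 2.50 and 1.24 CPM in Cis WT cells. The ratio of Tppp3 to Foxj1, in FPKM, was 61.1 and 40.5 in Cis Stat6 KO cells, 742 and 117 in Cis KO cells and 45.6 and 65.6 in Cis WT cells, highest in both Cis KO libraries. Ccdc153 ranged from 0.278 to 2.85 CPM and Tmem212 from 0 to 0.328 CPM. Dynlrb2, a light chain of dynein, had 0.766 and 0.247 CPM in Cis Stat6 KO cells, 0 and 0 CPM in Cis KO cells and 0.414 and 0.409 CPM in Cis WT cells. With 0 counts in both Cis KO libraries, it was at least 14.8-fold lower in Cis KO than in Cis WT cells (52 counts) and at least 19.8-fold higher in Cis Stat6 KO than in Cis KO cells (65 counts). These bounds set the empty group at 3 counts over its libraries, cover counting error only, and were not accompanied by a call by edgeR with all libraries (adjusted p = 0.374 and 0.184). Without Cis KO replicate 2 the edgeR adjusted p were 0.254 and 0.128.

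**Figure D3:**
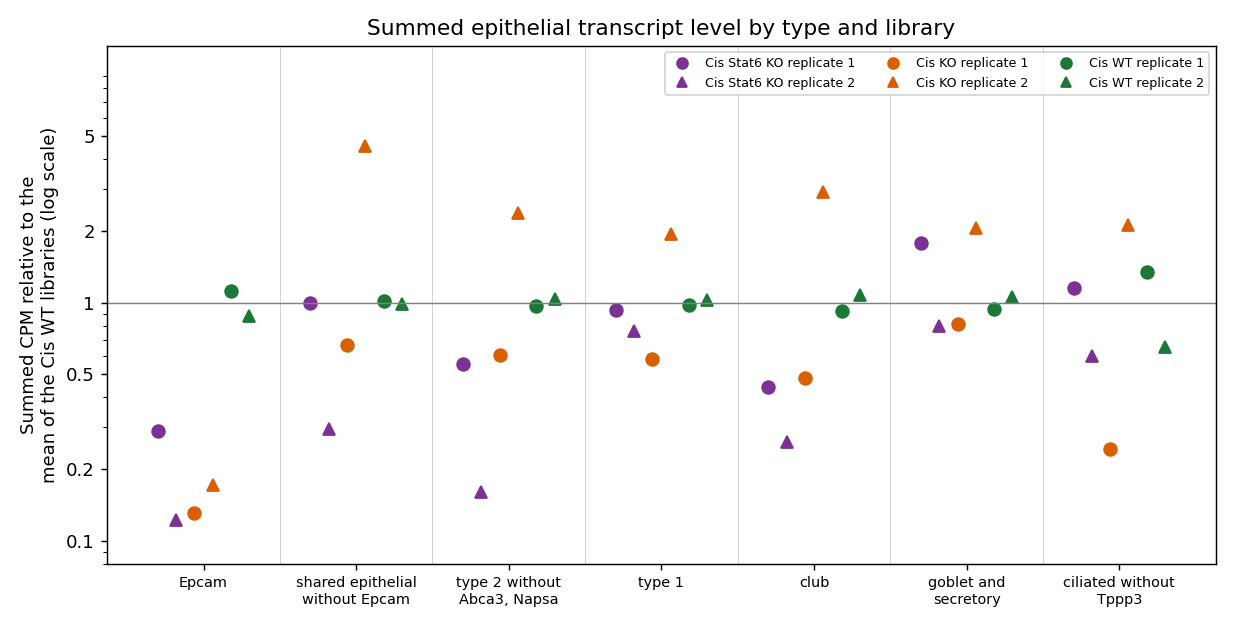
Summed CPM of each epithelial group divided by its mean over the Cis WT libraries (log scale), per library; circles are replicate 1 and triangles replicate 2. Abca3, Napsa and Tppp3, the genes of highest CPM in their groups, were left out of the sums after their values were seen. Cis KO replicate 2 was the top library in every group except Epcam, where it stood at 17.1% of the Cis WT mean.

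In cells lacking CIS alone most epithelial genes lay below wild type in replicate 1 and above it in replicate 2, while Epcam was low in both. None of the 34 genes was called in Cis KO against Cis WT cells by edgeR, where 0.274% of all tested genes were (46 of 16765), and the smallest adjusted p was that of Epcam (0.112). At an unadjusted p under 0.05 were 5 of 34 genes, Epcam, Abca3 and Dynlrb2 lower and Napsa and Tppp3 higher, beside 11.1% of all genes. DESeq2 called Epcam and Dynlrb2 lower and Tppp3 higher. Its calls over all genes, for every comparison, are given in the section on processing. The libraries did not overlap for 4 genes higher and 7 lower in Cis KO cells, where 21.4% and 25.9% of all genes did so. The median log2 fold change of the 34 genes was 0.59, beside -0.05 over all genes tested, and was the same with Dynlrb2 at its bound. That median turned on the library: it was -0.96 without Cis KO replicate 2, with 29 of 34 genes below 0, and 1.18 without Cis KO replicate 1. Without Cis KO replicate 1, replicate 2 alone stood for the genotype, and 25 of 34 genes were above 0. Epcam kept its sign in both fits, at -2.94 without replicate 2 and -2.56 without replicate 1.

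With both Cis KO libraries in use, 28 of 34 epithelial genes had a negative fold change in cells lacking STAT6 as well as CIS, and without Cis KO replicate 2 only 18 did. In Cis Stat6 KO against Cis KO cells edgeR called none of the 34 genes, beside 0.358% of all tested genes. At an unadjusted p under 0.05 were 11 genes, beside 18.3% of all genes. Lower were Sftpa1, Sftpb, Napsa, Aqp5, Scgb1a1, Scgb3a2, Cyp2f2, Cbr2 and Tppp3, and higher were Hopx and Dynlrb2, with edgeR adjusted p from 0.125 for Napsa to 0.270 for Aqp5. DESeq2 called 7 genes lower: Cyp2f2, Napsa, Scgb1a1, Scgb3a2, Sftpa1, Sftpb and Tppp3. The libraries did not overlap for 2 genes higher and 9 lower, where 27.9% and 22.5% of all genes did so. The median log2 fold change was -1.20, beside 0.05 over all genes, and was the same with Dynlrb2 at its bound. It was -0.04 without Cis KO replicate 2 and -1.90 without Cis KO replicate 1, with 28 of 34 genes below 0 in the latter. Without Cis Stat6 KO replicate 1 it was -2.21, and without Cis Stat6 KO replicate 2 it was -0.90.

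Cells without CIS and STAT6 had lower values than wild-type cells for most epithelial genes, a comparison whose means do not include Cis KO replicate 2. In Cis Stat6 KO against Cis WT cells the log2 fold change was below 0 for 27 of 34 genes, with a median of -0.75, beside -0.0027 over all genes. The libraries did not overlap for 19 genes lower and 3 higher in Cis Stat6 KO cells, where 23.5% and 23.3% of all genes did so. All 7 type 2 genes and all 5 club genes had fold changes below 0, with medians of -1.11 and -1.50, whereas the 6 goblet and secretory genes had a median of 0.22. None of the 34 was called by edgeR, beside 0.131% of all genes, and the smallest adjusted p was 0.230. At an unadjusted p under 0.05 were 6 genes, all lower (Epcam, Sftpa1, Sftpb, Abca3, Napsa and Cyp2f2), beside 5.36% of all genes. DESeq2 called Epcam. In fits without a Cis KO library the median was -0.76 without replicate 2 and -0.75 without replicate 1. The median was -1.61 without Cis Stat6 KO replicate 1 and -0.37 without Cis Stat6 KO replicate 2. The 3 comparisons share libraries, so their values are set side by side and were not correlated.

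**Figure D4:**
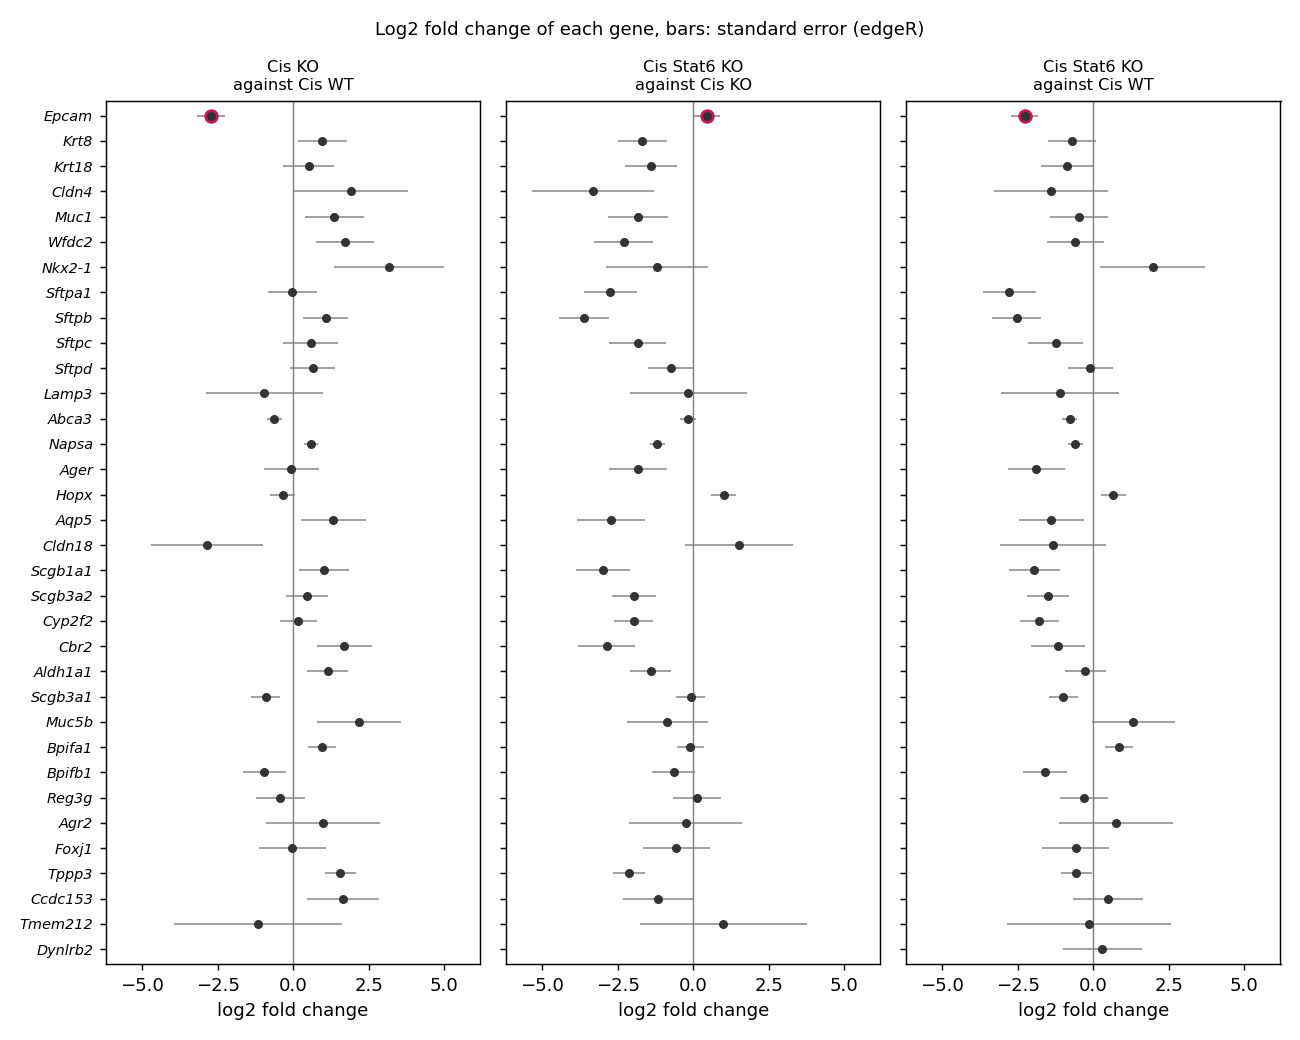
Log2 fold change of each of the 34 genes (points) with its standard error (bars) from edgeR in the 3 comparisons, the genotype named in the upper line of a panel over the one in the lower line. Dynlrb2 is omitted where a genotype had 0 counts, and Epcam is the larger coloured point. Most points lay below 0 in both Cis Stat6 KO panels, while in Cis KO against Cis WT Epcam lay well below 0 beside many points above it.

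By summed CPM, the erythroid, B cell, neutrophil and dendritic cell lists were highest in Cis KO replicate 2, where most epithelial genes were highest. The summed alveolar macrophage, endothelial, T and NK cell and fibroblast lists were not. The 9 listed erythroid and platelet genes summed to 359 and 49.5 CPM in Cis Stat6 KO cells, 15.3 and 38671 CPM in Cis KO cells and 201 and 193 CPM in Cis WT cells. The 7 listed B and plasma cell genes summed to 0.491 and 20.6 CPM in Cis Stat6 KO cells, 1.22 and 99.0 CPM in Cis KO cells and 5.07 and 2.56 CPM in Cis WT cells, and the 8 neutrophil genes to 136 and 232 CPM in Cis Stat6 KO cells, 76.9 and 446 CPM in Cis KO cells and 138 and 135 CPM in Cis WT cells. All 3 lists were highest in Cis KO replicate 2, and their part in the epithelial values was not tested. After the filter 7 of the 9, 5 of the 7 and all 8 were tested, and edgeR called none in any comparison. Within the neutrophil list Csf3r had 64.2 and 53.9 CPM in Cis Stat6 KO cells, 61.8 and 61.1 CPM in Cis KO cells and 116 and 113 CPM in Cis WT cells. It was thus not highest in Cis KO replicate 2, as S100a8 (189 CPM) and S100a9 (133 CPM) were. The 10 alveolar macrophage genes had their lowest sum in that library, but their median level was 797 and 812 CPM in Cis Stat6 KO cells, 643 and 747 CPM in Cis KO cells and 483 and 599 CPM in Cis WT cells, not lowest there. The 8 endothelial markers summed to 161 and 149 CPM in Cis Stat6 KO cells, 124 and 110 CPM in Cis KO cells and 129 and 122 CPM in Cis WT cells, lowest in Cis KO replicate 2. Of these Vwf, von Willebrand factor, made up most of the sum, at 106 to 160.3 CPM. Pecam1 and Tek, of the same list and far lower, were instead highest in Cis KO replicate 2. Pecam1 had 3.15 CPM there and 0.0585 to 1.40 CPM in the other libraries. Tek had 20 counts there and at most 2 in any other library. Sox17 had 0 counts in all 6 libraries and Cdh5 had at most 4 in a library. The 7 listed T and NK cell genes summed to 5.76 and 17.4 CPM in Cis Stat6 KO cells, 13.5 and 10.5 CPM in Cis KO cells and 24.1 and 7.09 CPM in Cis WT cells. The 8 listed fibroblast and smooth muscle genes summed to 9.13 and 10.6 CPM in Cis Stat6 KO cells, 2.56 and 8.40 CPM in Cis KO cells and 11.4 and 7.47 CPM in Cis WT cells, and were not highest in Cis KO replicate 2.

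Further epithelial genes outside the 34 gave 1 called gene in 7 lists. Of the epithelial junction and keratin list, 14 of 15 genes passed the filter, and Spint1 was called higher in both mutant genotypes against Cis WT, with none called in Cis Stat6 KO against Cis KO cells. In the other 6 lists edgeR called no gene in any of the 3 comparisons. At an unadjusted p under 0.05 were 3 of 49 tested genes in Cis KO against Cis WT cells, beside 11.1% of all genes. In Cis Stat6 KO against Cis KO cells 8 were, beside 18.3%, and in Cis Stat6 KO against Cis WT cells 3 were, beside 5.36%. These 6 lists held 9 tested genes of epithelial transcription and splicing factors, 9 of type 2 cells and surfactant lipid, 5 of type 1 cells, 14 of the ciliary axoneme, 8 of club and goblet cells and 4 of basal, neuroendocrine and tuft cells. Ltf, the antimicrobial lactoferrin of secretory cells and neutrophil granules, had 109 and 46.0 CPM in Cis Stat6 KO cells, 79.6 and 284 CPM in Cis KO cells and 90.4 and 85.0 CPM in Cis WT cells. Krt15, a basal cell keratin, had 4.41 and 1.56 CPM in Cis Stat6 KO cells, 3.56 and 27.2 CPM in Cis KO cells and 6.31 and 5.58 CPM in Cis WT cells. Both were highest in Cis KO replicate 2, like the club genes. Pdpn, the type 1 cell podoplanin, had 12.8 and 6.60 CPM in Cis Stat6 KO cells, 0.188 and 1.96 CPM in Cis KO cells and 2.97 and 2.84 CPM in Cis WT cells, with both Cis Stat6 KO libraries above the other 4. Cav1, the most abundant of the type 1 list, had 86.2 and 87.2 CPM in Cis Stat6 KO cells, 37.6 and 59.0 CPM in Cis KO cells and 94.1 and 77.8 CPM in Cis WT cells. Ovol2 led the transcription and splicing factor list, with 2.08 and 3.17 CPM in Cis Stat6 KO cells, 3.47 and 4.02 CPM in Cis KO cells and 0.811 and 0.672 CPM in Cis WT cells. Dnah11, an axonemal dynein heavy chain, had 2.86 and 0.637 CPM in Cis Stat6 KO cells, 14.1 and 6.94 CPM in Cis KO cells and 16.5 and 10.5 CPM in Cis WT cells, lowest in both Cis Stat6 KO libraries.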

How the data were processed

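Per the labels' protocols, total RNA of BALF cells was extracted with Trizol. Per the file headers, the authors deposited a raw count per gene for each sample, and beside it FPKM values, counts per gene length and library total, rounded to 2 decimals. The build is mm10, per the submitters' processing notes; aligner, counter and strandedness were not given in the sources used here, which leaves genes that overlap or run antisense uncertain.

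Counts of the 6 libraries were fitted in 1 model by genotype, without a replicate block, in edgeR 4.0.16 (R 4.3.3) after filterByExpr (16765 of 40564 genes) and TMM scaling (factors 0.863 to 1.08). The quasi-likelihood F test was two-sided, a gene was called at a Benjamini-Hochberg adjusted p under 0.05 over all tested genes, and the SE is the log2 fold change over the square root of F. With 2 libraries against 2, an exact permutation test of a single gene could not go below p = 0.333. The common biological coefficient of variation was 50.3%, so for all but sparse genes the replicate spread exceeded counting error. Alternatives used DESeq2 1.42.0, limma 3.58.1, other scalings and filters, log2(FPKM + 1) or log2(FPKM + 0.1), and each library left out. The fitting script was tested on simulated data.

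The text names all 34 genes, called genes and up to 3 of the most abundant of each further list, and Cish and Stat6. Not all of the most abundant genes of those lists are printed. Genes and lists were chosen with earlier results of these data known. Flt3, Cd207, Ccr7, Batf3, Xcr1, Cdh5 and Sox17, markers in their lists, were singled out after their values were seen. Motifs were searched in RefSeq windows of 300 bases.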

Additional observations from a re-analysis of the deposited data

How the results depend on the processing

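Calls among the 34 genes depended on the processing. In the order Cis KO against Cis WT, Cis Stat6 KO against Cis KO and Cis Stat6 KO against Cis WT, the number of the 34 genes called was 8, 15 and 9 without a filter, 3, 7 and 1 with DESeq2, 1, 0 and 0 with log2(FPKM + 1) and a minimum of 0.5 FPKM, and 0, 0 and 3 with only the 4 libraries compared. It was 0 throughout under the other settings that kept all libraries. Leaving out a library gave 0 to 16, 0 to 15 and 0 to 4. Over all genes the calls, 46, 60 and 22 in the reported analysis, were 26, 29 and 20 with library size alone, 1021, 1840 and 385 without a filter, 522, 1544 and 320 with DESeq2, 74, 191 and 52 with log2(FPKM + 1), 59, 99 and 35 with log2(FPKM + 0.1), 2, 2 and 1 with unfiltered log2(FPKM + 1), and 6, 5 and 277 with only the 4 libraries compared. Leaving out a library gave 3 to 5349, 4 to 5999 and 0 to 350. The cause was not tested.

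No pairing of the samples by replicate number was seen: deviations of same-numbered libraries correlated at 0.05 between Cis Stat6 KO and Cis KO, -0.12 between Cis Stat6 KO and Cis WT and -0.07 between Cis KO and Cis WT. Each genotype gives a single difference per gene, so this check cannot exclude a pairing. With the replicate block no epithelial gene was called and 24, 28 and 12 of all genes were.

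Epcam in Cis KO against Cis WT kept its sign in all 18 alternatives and was called without a filter (-2.74), with DESeq2 (-2.71), with log2(FPKM + 1) (-2.24) and when a library was left out (-2.94 to -2.55, called without Cis KO replicate 1). In Cis Stat6 KO against Cis WT it was called without a filter (-2.28), with DESeq2 (-2.28), with only the 4 libraries compared (-2.27), and without either Cis KO library, over a range of -3.05 to -1.79 with a library left out. In Cis Stat6 KO against Cis KO leaving out a library gave -0.31 to 0.95, below 0 without Cis Stat6 KO replicate 1. Of the 102 fold changes of the 34 genes in 3 comparisons, 49 changed sign when some library was left out, 28 of them without Cis KO replicate 2, and 13 in another alternative. None of the fold changes of the 34 genes that are printed with an SE changed sign, apart from that of Epcam in Cis Stat6 KO against Cis KO cells. Changing the scaling moved the median of all genes by at most 0.098 on the log2 scale.

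Genes under 1 CPM rest on few counts, which limits what can be detected for them at this depth. With 2 libraries a genotype and replicates that differ as those of Cis KO do, folds of single epithelial genes are known only roughly.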

Other observations

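Genes by which macrophages take up and process surfactant were also listed, as the receiving side of the material that type 2 cells make. None of the 10 was called by edgeR in any of the 3 comparisons. At an unadjusted p under 0.05 was 1 in Cis KO against Cis WT cells, beside 11.1% of all genes. In Cis Stat6 KO against Cis KO cells 6 were, beside 18.3%, and in Cis Stat6 KO against Cis WT cells 3 were, beside 5.36%. Lpl, lipoprotein lipase, had 1492 and 1377 CPM in Cis Stat6 KO cells, 712 and 769 CPM in Cis KO cells and 970.0 and 1584 CPM in Cis WT cells, with both Cis KO libraries lowest. Abcg1, a cholesterol exporter, had 709 and 411 CPM in Cis Stat6 KO cells, 879 and 1427 CPM in Cis KO cells and 714 and 1023 CPM in Cis WT cells. Cd9, a tetraspanin and the most abundant of the 10, had 2207 and 2265 CPM in Cis Stat6 KO cells, 1516 and 1355 CPM in Cis KO cells and 1478 and 1918 CPM in Cis WT cells, highest in both Cis Stat6 KO libraries.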
